A study of Mus musculus with 17 samples.

Results

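The complement component C3 and 8 genes of the alternative complement pathway and its control were followed across the kidneys of 3 groups of mice. The genes were named as members of the pathway, by a rule that uses no measured level, though with earlier results of these data known, and all 9 were found among the 53379 genes of the deposited count table. They are C3 itself, the activating proteins Cfb, Cfd and Cfp, the protease Cfi that inactivates C3b, the membrane regulators Cd55 and Cd59a, and the anaphylatoxin receptors C3ar1 and C5ar1.

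Complement is a protein cascade of blood and tissue fluid that marks surfaces for removal. In its alternative arm, C3b on a surface binds factor B (Cfb), which factor D (Cfd, adipsin) cuts to form the C3 convertase, and properdin (Cfp) holds that enzyme together. Factor I (Cfi) cuts C3b with the help of cofactors, CD55 takes the convertase apart, and CD59 blocks the membrane attack complex. The fragments C3a and C5a act on the receptors C3ar1 and C5ar1, which myeloid cells carry. The liver makes most of the C3 in blood, and tubule cells of the kidney also make it. Adipsin comes mainly from fat cells and is known for its low level in genetically obese mice.

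Messenger RNA was sequenced from cortex enriched for glomeruli in 17 mice of the BTBR strain, and all comparisons are between mice. The ob/ob mice lack leptin through a germline mutation of Lep, called ob, and become obese and diabetic on this background. Atrasentan, a drug that blocks the receptor ETA for endothelin, was given to 7 of them in drinking water (daily dose 5 mg per kg), and 5 were given saline, both for 6 weeks from 18 weeks of age. The 5 wild type mice of the same strain, for which the labels give no treatment, were killed at 24 weeks, as were the others. The genotype labels of the saline and wild type libraries carry a suffix that the atrasentan labels lack and which the labels do not explain.

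Gene reads per library ran from 37252939 to 52528747 with atrasentan, from 35938445 to 40268662 with saline and from 29161833 to 40965108 in wild type mice. The atrasentan libraries stood apart. They had reads on 21396 to 23081 genes, against 24335 to 25313 with saline and 23901 to 24877 in wild type. Of their reads, 3.17% to 5.65% overlapped no feature used for counting, against 5.95% to 8.17% and 6.26% to 8.58%. Lep had 1 read over all 17 libraries, in a saline library, so it does not check the genotype labels. Podocyte, endothelial and mesangial markers were detected in every library, and so were markers of proximal tubule.

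Promoter sequence was available for 7 of the 9 genes in the RefSeq table for build GRCm38.p6. The 250 bases before the start are printed 5′ to 3′ on the gene's strand for C3, which was lower with atrasentan than with saline, and for Cfp and C3ar1, which were higher. They are those at chr17:57228137-57228386, chrX:20931556-20931805 and chr6:122856158-122856407, all on the minus strand. Capitals mark matches on either strand to the kappa-B motif (GGG, then any 5 bases, then CC) and, in C3, 1 match to the C/EBP motif TTNNGCAA, written TTGCGAAA because it lies on the other strand.
C3: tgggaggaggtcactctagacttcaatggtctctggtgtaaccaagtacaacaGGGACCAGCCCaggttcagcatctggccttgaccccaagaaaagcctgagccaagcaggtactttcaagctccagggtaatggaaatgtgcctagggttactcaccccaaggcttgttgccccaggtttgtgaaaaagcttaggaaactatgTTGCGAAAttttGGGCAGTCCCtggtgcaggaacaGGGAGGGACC
Cfp: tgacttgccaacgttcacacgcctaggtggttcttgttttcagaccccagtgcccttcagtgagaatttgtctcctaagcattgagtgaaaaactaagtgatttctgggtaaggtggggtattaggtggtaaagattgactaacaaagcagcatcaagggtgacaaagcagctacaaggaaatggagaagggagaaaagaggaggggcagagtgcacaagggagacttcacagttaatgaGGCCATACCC
C3ar1: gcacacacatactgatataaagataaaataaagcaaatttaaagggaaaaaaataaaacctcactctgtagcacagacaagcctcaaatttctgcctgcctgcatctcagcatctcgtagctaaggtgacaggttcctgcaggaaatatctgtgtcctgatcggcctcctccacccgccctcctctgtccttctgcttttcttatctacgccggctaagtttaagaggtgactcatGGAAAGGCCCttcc
The C3 promoter held 4 kappa-B matches, the first pair of which overlap on opposite strands, and the other promoters printed held 1 each. Matches to kappa-B were in 6 of the 7 promoters and in 45.8% of 32851 RefSeq promoters of the same length. The C/EBP letters were in C3 alone of the 7 and in 9.6% of all promoters. The interferon-stimulated response element (GAAA, any 2 bases, GAAA) was in Cd59a, as GAAAGGGAAA from 187 to 178 bases before the start, and in 3.0% of all promoters. The gamma-activated site, TTCNNNGAA, was in none of the 7 and in 7.0% of all. These matches describe letters only.

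Of the 9 genes, 8 passed the filter on low counts and Cfd did not. Differences between groups were tested with edgeR's quasi-likelihood F test on all genes that passed, and a gene is called changed at a Benjamini-Hochberg adjusted p under 0.05. In saline ob/ob against wild type mice C3 and Cfb rose and Cd55 fell, so 3 of 8 were called, where 5.12% of all genes tested were called (3.21% higher and 1.91% lower). With atrasentan against saline C3, Cfb and Cfi fell and Cfp and C3ar1 rose, which makes 5 of 8, where 33.8% of all genes were called (15.3% higher and 18.5% lower). With atrasentan against wild type Cfp, C3ar1 and C5ar1 rose and Cfi, Cd55 and Cd59a fell, which makes 6 of 8, where 29.2% of all genes were called (14.7% higher and 14.5% lower). The median log2 fold change of the 8 was 0.94 in saline against wild type, where all genes had 0.01, -0.39 in atrasentan against saline, where all genes had -0.01, and -0.03 in atrasentan against wild type, where all genes had -0.01. The first and second of these comparisons share the saline libraries, so a gene that is high with saline tends to rise in the first and fall in the second.

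Library values did not overlap between saline and wild type for 3 of the 9 genes (C3, C3ar1 and Cfd), where 7.42% of all genes tested had no overlap. The same held between atrasentan and saline for 2 genes (C3 and Cfp), with 11.8% of all genes, and between atrasentan and wild type for 5 genes (Cfd, Cfi, Cd55, Cfp and C3ar1), with 13.2% of all genes. Levels are given as CPM, read counts scaled to a common library size. In bulk tissue, fewer cells of a type and less RNA per cell cannot be told apart.

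**Figure D1:**
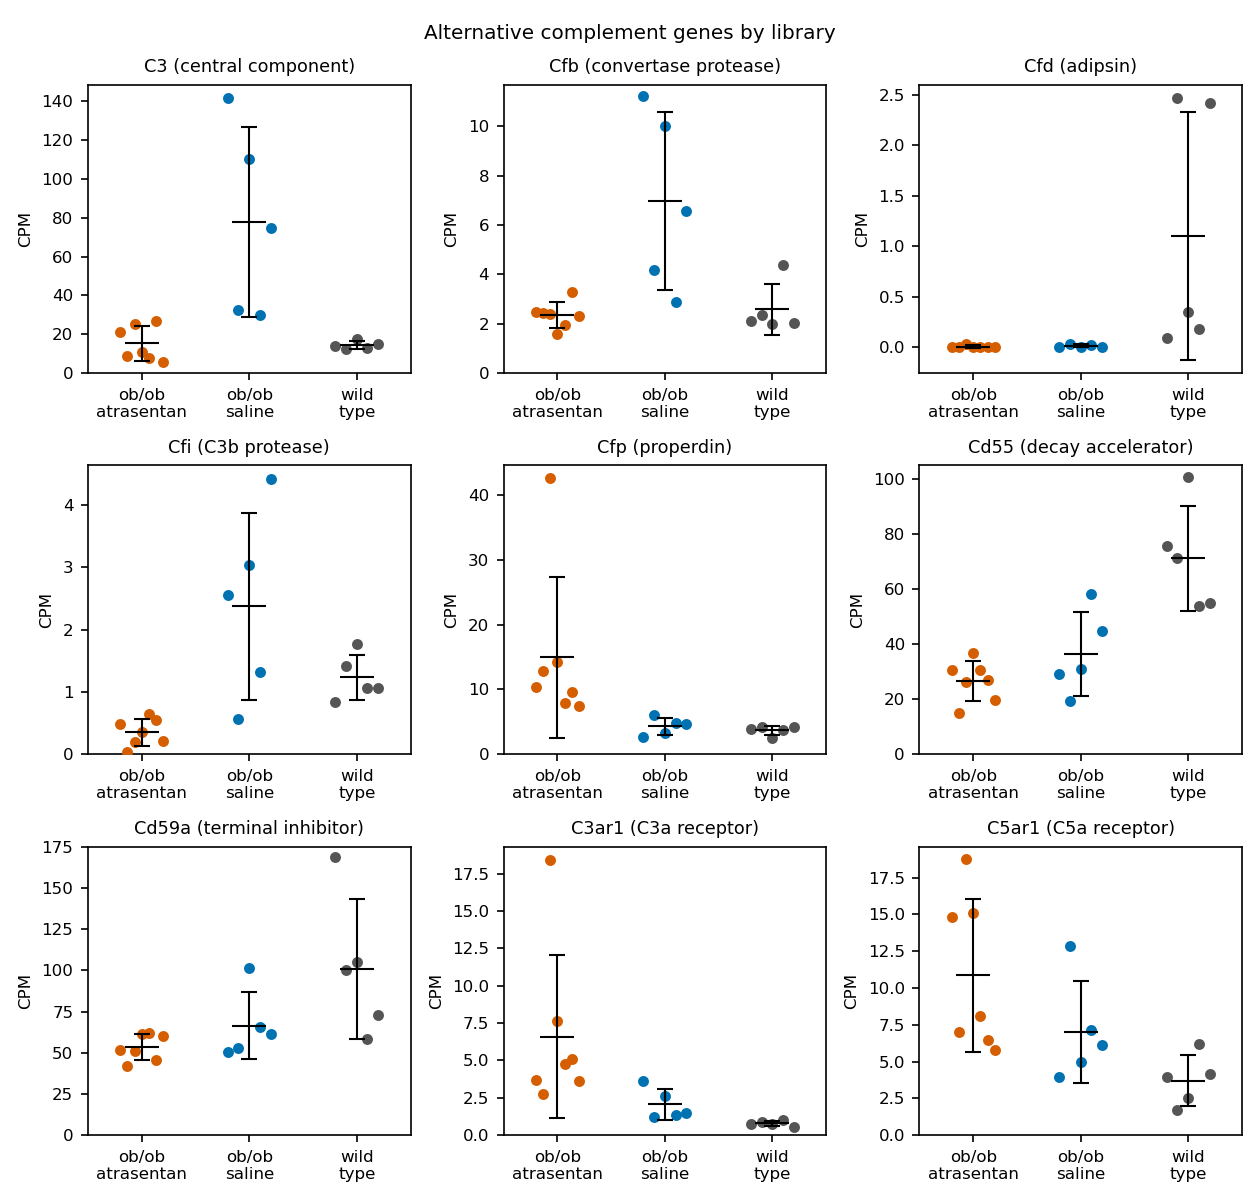
CPM (y axis, linear, each panel with its own scale) of the 9 genes in 7 atrasentan-treated ob/ob, 5 saline-treated ob/ob and 5 wild type mice. Points are libraries and bars are the mean and SD. The saline C3 libraries, between 29.7 and 142 CPM, all lie above the other 12, and Cfp and C3ar1 each have 1 atrasentan library far above the rest, at 42.6 and 18.4 CPM.

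C3 (build GRCm38, chr17:57203970-57228136, minus strand) was several times higher in saline-treated ob/ob mice than in either other group. The atrasentan libraries ran from 5.85 to 26.7 CPM with a median of 10.7. The saline libraries had 142, 32.5, 110.2, 29.7 and 74.6 CPM. The wild type libraries had 13.9, 12.3, 17.8, 13.0 and 14.8 CPM. Every saline library lay above every library of the other groups, and the wild type libraries lay within the range of the atrasentan libraries. With saline C3 rose by 2.44 ± 0.47 on the log2 scale against wild type (SE, 95% interval 1.45 to 3.43, edgeR adjusted p = 0.0113), a fold of 5.42. With atrasentan it fell by 2.36 ± 0.41 against saline (95% interval -3.23 to -1.48, adjusted p = 0.000642). The difference between atrasentan and wild type was 0.08 ± 0.42, with a 95% interval of -0.79 to 0.96 (edgeR adjusted p = 0.901). Its sign changes with the normalization.

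In both comparisons with the saline libraries, C3 differed in the same direction as markers of the proximal tubule, the tubule segment that reabsorbs most of the filtered solutes, and in atrasentan against wild type it did not. The mean log2 CPM of 16 such markers was 4.54 ± 0.96 in atrasentan, 7.68 ± 1.10 in saline and 6.34 ± 0.42 in wild type libraries (SD, n = 7, 5 and 5), and their summed level ran from 252.4 to 2203 CPM, from 2816 to 13000.3 CPM and from 1667 to 3518 CPM. By edgeR, 15 of the 16 fell with atrasentan against saline, while 5 rose and 1 fell with saline against wild type. Their mean differed by -3.14 in atrasentan against saline (exact permutation, adjusted p = 0.00947). In saline against wild type it differed by 1.34 and did not pass (exact permutation, adjusted p = 0.102). In atrasentan against wild type the mean differed by -1.80 (exact permutation, adjusted p = 0.0265 over 30 tests) and 9 markers fell, where C3 differed by 0.08. The marker mean was highest in saline libraries 1 (8.72) and 3 (8.79), which also had the highest C3. With the marker mean as a covariate, the C3 difference was 1.16 in saline against wild type (adjusted p = 0.155) and 0.11 in atrasentan against saline (adjusted p = 0.949). In atrasentan against wild type it was 1.27 and passed (adjusted p = 0.0188). All atrasentan libraries lay below all saline libraries in this mean, so the covariate and the group cannot be told apart between them. Only atrasentan library 6 (6.19) reached the wild type range (5.89 to 6.95). Covariate and group can therefore hardly be told apart in atrasentan against wild type either. These limits hold for every gene adjusted for this mean. Without saline libraries 1 and 3, the highest in C3, the difference from wild type was 1.65 (adjusted p = 0.120). A smaller difference follows from leaving out the highest libraries. The wild type libraries (marker means of 5.89 to 6.95) had 12.3 to 17.8 CPM of C3. Within that range of marker means, atrasentan library 6 (6.19) had 26.7 CPM, and saline libraries 2 (6.68) and 4 (6.45) had 32.5 and 29.7 CPM. These are single libraries and no test was made. The mean of 8 markers of the loop of Henle, distal tubule and collecting duct did not pass in any comparison. It differed by 1.43 in saline against wild type, -1.68 in atrasentan against saline and -0.25 in atrasentan against wild type (adjusted exact p = 0.0595, 0.104 and 0.782). The part of these segments in the C3 differences was not tested.

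Cfb (chr17:34856374-34862518, minus strand), the protease of the convertase, followed C3 with smaller folds. It had 1.57 to 3.30 CPM with atrasentan (median 2.38). Saline libraries had 11.2, 4.16, 10.03, 2.89 and 6.57 CPM. Wild type libraries had 2.13, 2.35, 1.99, 4.38 and 2.03 CPM. Saline libraries 1 and 3 were again the highest, and the groups overlapped because saline library 4 lay among the other groups and wild type library 4 among the saline ones. Cfb rose by 1.44 ± 0.34 with saline against wild type (SE, edgeR adjusted p = 0.0258) and fell by 1.57 ± 0.31 with atrasentan against saline (adjusted p = 0.00121). The atrasentan value differed from that of wild type by -0.14 (95% interval -0.79 to 0.52, edgeR adjusted p = 0.773). The saline call was lost without saline library 1 or 3 or wild type library 1, 2, 3 or 5 (adjusted p = 0.0612 to 0.0826). Without saline libraries 1 and 3 together, the highest in Cfb, the difference was 0.80 (adjusted p = 0.362), and a smaller difference follows from that choice. With the tubule mean as a covariate the differences were 0.71 in saline against wild type (adjusted p = 0.373) and 0.02 in atrasentan against saline (adjusted p = 0.989). With the podocyte mean minus the proximal tubule mean as a covariate, atrasentan and saline differed by -0.58 for Cfb and -1.17 for C3 (adjusted p = 0.253 and 0.100), and those calls were lost too. The exons of Cfb overlap those of Gm20547 on the same strand over 2246 of their 2825 bases, and Gm20547 is listed at 0 in every library, so the counts of Cfb may come mostly from the 579 bases it does not share.

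Cfi (chr3:129835884-129875332, plus strand), which encodes the protease that inactivates C3b, was scarce in all groups and lowest with atrasentan. It had 0.027 to 0.637 CPM with atrasentan (median 0.350). In saline libraries it had 2.55, 0.559, 3.04, 1.32 and 4.42 CPM. In wild type it had 0.842, 1.42, 1.77, 1.06 and 1.06 CPM. Every atrasentan library lay below every wild type library, while saline library 2 lay within the atrasentan range. Cfi fell by 2.74 ± 0.51 with atrasentan against saline (SE, edgeR adjusted p = 0.000982) and by 1.79 ± 0.51 against wild type (adjusted p = 0.0144). Saline and wild type differed by 0.95 ± 0.54 (95% interval -0.18 to 2.08, edgeR adjusted p = 0.331). With the tubule mean as a covariate the atrasentan calls were lost, at -0.73 against saline (adjusted p = 0.738) and -0.76 against wild type (adjusted p = 0.412). In that mean all atrasentan libraries lay below all saline libraries, and only library 6 (6.19) reached the wild type range (5.89 to 6.95). Covariate and group thus cannot be told apart against saline, and hardly against wild type. With the macrophage mean described further on as a covariate, the call against wild type was also lost (-1.75, adjusted p = 0.193).

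Cfd (chr10:79890853-79892655, plus strand), adipsin, was almost absent from both ob/ob groups. It had 1 read in 288220404 with atrasentan and 2 reads in 188817465 with saline. Wild type libraries had 4, 82, 11, 6 and 82 reads, 185 in 162062057. Every wild type library lay above every ob/ob library. The ratio of saline to wild type was 0.00928, with an exact 95% interval of 0.00112 to 0.0340, and that of atrasentan to wild type was 0.00304, with an interval of 7.65e-05 to 0.0171. These intervals cover counting error only. Over mice, the exact two-sided permutation p was 0.00794 for saline and 0.00126 for atrasentan against wild type, in each case the smallest that the numbers of mice allow. The permutation test was added after the data were seen, since the low-count filter kept Cfd out of the fit.

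Wild type libraries 2 and 5, with 82 reads of Cfd each, also had the most reads of fat cell genes. Adipoq, Plin1, Cidec, Retn and Lep, genes typical of fat cells, summed to 0 to 9 reads in the atrasentan libraries and 2 to 4 in the saline libraries. In wild type libraries they summed to 6, 20, 8, 9 and 36 reads. With Fabp4, Lpl and Car3, which other cells also express, the 8 fat cell markers summed to 662 to 912 CPM in atrasentan, 431 to 657 CPM in saline and 323 to 433 CPM in wild type libraries. The sum in wild type libraries 1, 3 and 4 (6 to 9 reads, with 4 to 11 reads of Cfd) reaches the highest of the atrasentan libraries (9 reads, with 1 read of Cfd). The part of fat tissue in the Cfd difference was not tested. Without the low-count filter, edgeR gave a log2 fold change of -6.30 ± 1.05 for saline (SE, adjusted p = 0.00446) and of -7.27 ± 1.00 for atrasentan (adjusted p = 4.35e-05) against wild type. With saline libraries 1 and 3 left out, Cfd passed the filter and the saline value was -5.73 (adjusted p = 0.0792).

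Cfp (chrX:20925454-20931555, minus strand), properdin, which white blood cells make, was higher with atrasentan than in both other groups. The atrasentan libraries ran from 7.42 to 42.6 CPM with a median of 10.3. Saline libraries had 2.63, 6.06, 3.32, 4.72 and 4.70 CPM. In wild type libraries the values were 3.83, 4.19, 2.43, 3.71 and 4.13 CPM. Every atrasentan library lay above all others, and library 3 lay far above the next highest, library 4 at 14.2 CPM. Cfp rose by 1.80 ± 0.40 against saline (SE, edgeR adjusted p = 0.00276) and by 2.03 ± 0.40 against wild type (adjusted p = 0.00123). Without atrasentan library 3 these were 1.27 and 1.50 and both calls held. Adjusted for the proximal tubule mean, the call against saline was lost (1.41, adjusted p = 0.383). Saline and wild type differed by 0.23 ± 0.41 (95% interval -0.64 to 1.09, edgeR adjusted p = 0.812).

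C3ar1 (chr6:122847138-122856161, minus strand), the receptor of C3a, was higher with atrasentan than in both other groups. It had 2.78 to 18.4 CPM with atrasentan (median 4.73). Saline libraries had 3.60, 1.17, 2.61, 1.37 and 1.51 CPM. In wild type it had 0.709, 0.874, 0.727, 1.03 and 0.560 CPM. Each ob/ob library lay above each wild type library, and saline library 1 lay within the atrasentan range. C3ar1 rose by 1.68 ± 0.44 with atrasentan against saline (SE, edgeR adjusted p = 0.00805) and by 3.07 ± 0.48 against wild type (adjusted p = 0.000190). Without atrasentan library 3 these were 1.16 and 2.56, and both calls held. Adjusted for the proximal tubule mean, the difference from saline was 3.18 and the call was lost (adjusted p = 0.0979). In saline against wild type the difference was 1.39 ± 0.48 (edgeR adjusted p = 0.0932), and it passed with DESeq2 (adjusted p = 0.0282), in a fit of those groups alone (adjusted p = 0.0339) and without atrasentan library 3 (adjusted p = 0.0329).

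C5ar1 (chr7:16246743-16259540, minus strand), the receptor of C5a, was higher with atrasentan than in wild type, and its other differences did not pass. It had 5.79 to 18.8 CPM with atrasentan (median 8.12). In saline libraries the values were 3.94, 12.8, 5.00, 7.17 and 6.13 CPM. In wild type libraries the values were 3.97, 1.69, 2.497, 6.21 and 4.16 CPM. All groups overlapped. C5ar1 rose by 1.55 ± 0.39 with atrasentan against wild type (SE, edgeR adjusted p = 0.00633), a call lost when adjusted for the proximal tubule mean (1.18, adjusted p = 0.110). The differences of 0.63 ± 0.37 between atrasentan and saline (95% interval -0.15 to 1.42, edgeR adjusted p = 0.198) and of 0.92 ± 0.40 between saline and wild type (0.07 to 1.77, adjusted p = 0.189) did not pass.

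Markers of macrophages were higher with atrasentan than in both other groups, as were Cfp and C3ar1. Their mean log2 CPM over 16 genes was 3.82 ± 0.59 in atrasentan, 2.65 ± 0.26 in saline and 2.67 ± 0.56 in wild type libraries (SD, n = 7, 5 and 5), and the summed level ran from 554 to 1497, from 341 to 614 and from 359 to 880 CPM. The difference between atrasentan and saline was 1.17 and that between atrasentan and wild type 1.14 (exact permutation, adjusted p = 0.0227 and 0.0265 over 30 tests). The call against wild type was lost without wild type library 2 or 3 (adjusted p = 0.0606 and 0.0744). By edgeR 12 and 10 of the 15 markers tested rose. No marker was called in saline against wild type, and the means differed by -0.03 (adjusted exact p = 0.936), where C3ar1 differed by 1.39. C5ar1 differed by 0.63 in atrasentan against saline and did not pass. Marco, with 7 reads in all, was the marker outside the fit. Atrasentan library 3, with the highest Cfp, C3ar1 and C5ar1, also had the highest marker mean (4.92). The same library had the highest neutrophil marker mean of its group (2.88, where the next was 0.99). Saline library 2, with the highest saline Cfp and C5ar1, had the highest saline neutrophil mean (2.49). Neutrophil marker means differed by 1.37 between atrasentan and wild type (adjusted exact p = 0.0728), where 3 of the 6 markers tested rose. Their part in the Cfp, C3ar1 and C5ar1 differences was not tested. With the macrophage mean as a covariate, chosen after the data were seen, the atrasentan differences from saline were 0.53 for Cfp (adjusted p = 0.432), 0.43 for C3ar1 (adjusted p = 0.643) and -0.63 for C5ar1 (adjusted p = 0.401). All atrasentan libraries (3.29 to 4.92) lay above all saline libraries (2.35 to 3.02) in this mean. The covariate and the group cannot be told apart in that comparison. In the same fit the differences from wild type were 0.75 for Cfp (adjusted p = 0.269) and 0.43 for C5ar1 (adjusted p = 0.589), and both calls were lost. For C3ar1 the difference from wild type was 1.80 and the call held (adjusted p = 0.0463). Of the wild type libraries (2.06 to 3.37) only library 5 (3.37) reached the atrasentan range in this mean. Covariate and group can therefore hardly be told apart against wild type either, which also limits the values of Cfi and Cd59a in this fit.

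**Figure D2:**
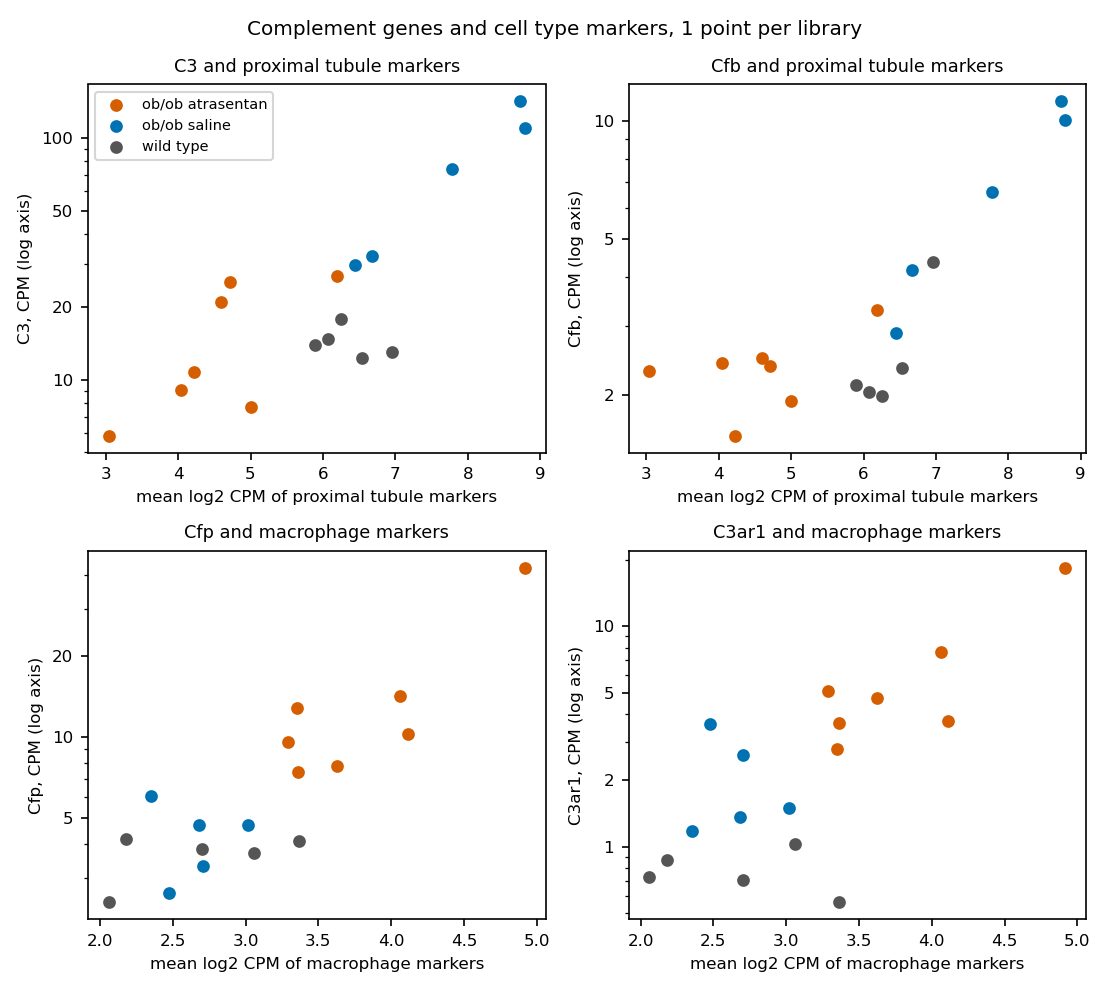
Level of C3 and Cfb against the mean of 16 proximal tubule markers (upper panels) and of Cfp and C3ar1 against the mean of 16 macrophage markers (lower panels), 1 point per library. The y axes are CPM on a log scale and the x axes mean log2 CPM. Saline libraries 1 and 3 are the farthest points to the upper right for C3 and Cfb, and atrasentan library 3, at a macrophage mean of 4.92, for Cfp and C3ar1.

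Both membrane regulators were lower with atrasentan than in wild type. Cd55 (chr1:130439027-130462744, minus strand), which takes the convertase apart, had 14.9 to 36.6 CPM with atrasentan (median 26.9). Saline libraries had 29.2, 19.2, 30.9, 58.3 and 44.9 CPM. Wild type libraries had 75.7, 71.3, 100.6, 53.8 and 54.8 CPM. All atrasentan libraries lay below all wild type libraries, and saline library 4 lay within the wild type range. Cd55 fell by 1.43 ± 0.25 with atrasentan against wild type (SE, edgeR adjusted p = 0.000469), and this call held in all alternatives tried. It fell by 0.96 ± 0.27 with saline against wild type (adjusted p = 0.0496). That call was lost in 13 of the 17 fits that left out 1 library (adjusted p up to 0.134), with relative log expression factors (adjusted p = 0.0502), when adjusted for the tubule or the macrophage mean (adjusted p = 0.253 and 0.0557), in the fit of those groups alone (adjusted p = 0.0510) and without saline libraries 1 and 3 (-0.81, adjusted p = 0.385). Atrasentan and saline differed by -0.46 ± 0.25 (95% interval -0.99 to 0.06, edgeR adjusted p = 0.161).

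Cd59a (chr2:104095801-104115354, plus strand), the inhibitor of the terminal pore, had 42.2 to 61.9 CPM with atrasentan (median 51.4). Saline libraries had 50.7, 53.0, 101.5, 65.7 and 61.5 CPM. In wild type libraries the values were 168.9, 99.99, 105.0, 58.3 and 73.0 CPM. Of the wild type libraries only library 4 lay within the atrasentan range, and saline libraries 1, 2 and 5 lay within it too. Cd59a fell by 0.92 ± 0.22 with atrasentan against wild type (SE, edgeR adjusted p = 0.00441), a call lost with the macrophage mean as a covariate (-0.85, adjusted p = 0.135). The differences of -0.32 ± 0.22 between atrasentan and saline (adjusted p = 0.273) and of -0.60 ± 0.24 between saline and wild type (adjusted p = 0.141) did not pass by edgeR. The paralogues Cd59b and Cd55b share sequence with Cd59a and Cd55, and reads that aligned to several places were not assigned, so levels within each pair are uncertain.

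Podocyte markers were also lower with atrasentan than in wild type. Their mean log2 CPM over 12 genes was 6.38 ± 0.62 in atrasentan, 7.44 ± 0.47 in saline and 8.49 ± 0.29 in wild type libraries (SD, n = 7, 5 and 5), with summed levels of 2112 to 5041, 4622 to 9592 and 8631 to 13594 CPM. Atrasentan differed from wild type by -2.12 (adjusted exact p = 0.00947) and saline from wild type by -1.05 (adjusted exact p = 0.0265). Atrasentan differed from saline by -1.07 (adjusted exact p = 0.0379), where neither Cd55 nor Cd59a passed, and this call was lost in 8 of the 12 tests that left out 1 library. Their part in the Cd55 and Cd59a differences was not tested on its own. The podocyte mean entered a fit only within the glomerular share, the podocyte mean minus the tubule mean. In atrasentan against wild type both means were lower (-2.12 and -1.80) and largely cancel in that share. The share therefore cannot adjust for podocytes in that comparison. With that share as a covariate Cd55 differed by -0.58 in saline against wild type (adjusted p = 0.738). The podocyte means of saline (6.99 to 8.08) and wild type libraries (8.22 to 8.91) did not overlap. Podocytes and group therefore cannot be told apart in that comparison. The calls of Cd55 and Cd59a in atrasentan against wild type held in the same fit.

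**Figure D3:**
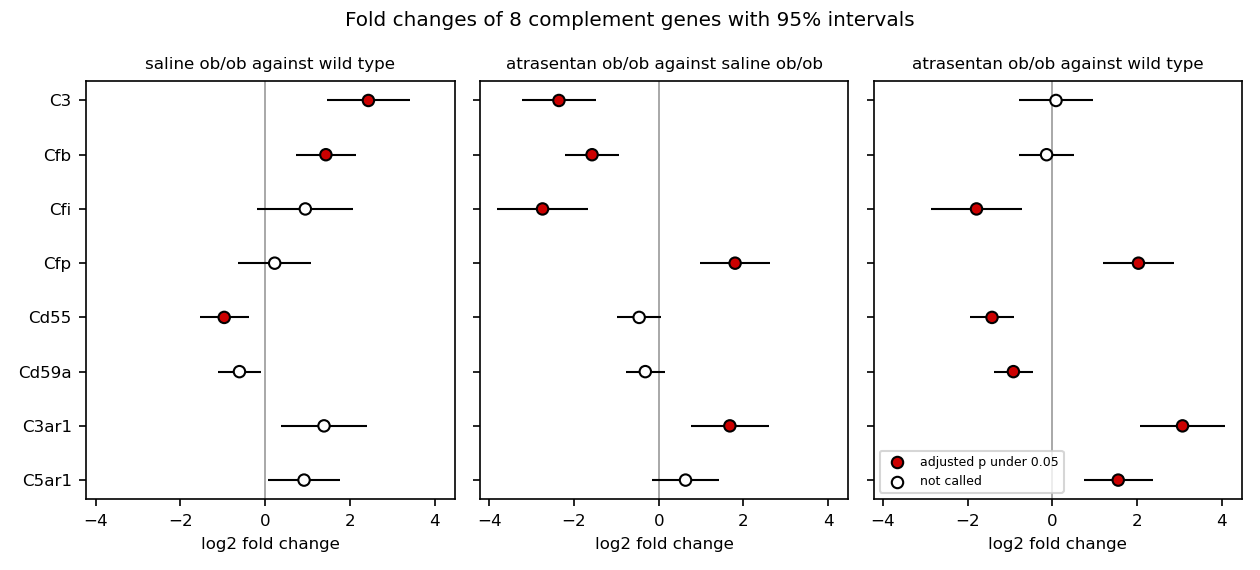
Log2 fold changes (x axis) of the 8 genes tested, in 3 comparisons, with 95% intervals as lines and filled points for an edgeR adjusted p under 0.05. C3 and Cfb lie to the right in the first panel, to the left in the second and near 0 in the last, while Cfp and C3ar1 lie to the right in the atrasentan panels.

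Of 46 other complement genes, 31 were tested. In saline against wild type 3 rose and none fell, in atrasentan against saline 11 rose and 6 fell, and in atrasentan against wild type 11 rose and 6 fell. Over all genes tested, 5.12%, 33.8% and 29.2% were called in these comparisons. The median log2 fold changes of the 31 were 0.22, -0.40 and 0.14, against 0.01, -0.01 and -0.01 over all genes. The list was drawn up with earlier results of these data known. Adjusted for the tubule mean, edgeR called 0 of the 31 in saline against wild type and 0 in atrasentan against saline (5 and 7 at an unadjusted p under 0.05), and 12 were called in atrasentan against wild type. In that fit C2 and Cpn1 differed by -0.18 and -0.17 between atrasentan and saline (adjusted p = 0.883 and 0.828), while C1qa and Serping1 differed by 4.33 and 1.57 (adjusted p = 0.136 and 0.106). With the macrophage mean in its place, 5 were called in atrasentan against saline (Serping1, C1ra and Fcna higher, C2 and Cpn1 lower). The atrasentan and saline libraries did not overlap in either mean, so covariate and group cannot be told apart in that comparison. Between atrasentan and saline libraries, the means of 11 glomerular endothelial and 8 mesangial markers also differed, by 0.50 and 0.63 (adjusted exact p = 0.00947 and 0.0265), and by edgeR 8 and 5 of them rose. The part of these cells in the differences of single genes was not tested.

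The classical pathway, which antibodies and C1q start, had 7 genes tested. C2 and C4b, whose products form the classical C3 convertase, rose in saline against wild type, C2 by 1.70 ± 0.42 and C4b by 2.45 ± 0.54 (SE, edgeR adjusted p = 0.0315 and 0.0205). In atrasentan against saline, C2 fell by 2.45 ± 0.39 (adjusted p = 0.000333), to 1.23 ± 0.64 CPM against 6.70 ± 3.49 CPM with saline (SD, n = 7 and 5). C4b differed there by -0.81 (adjusted p = 0.184), and its near copy C4a makes its counts uncertain. The other 5 classical genes rose with atrasentan against saline. The C1q chains C1qa, C1qb and C1qc, which macrophages make, rose by 3.11 ± 0.63, 3.25 ± 0.61 and 3.23 ± 0.58 (edgeR adjusted p of at most 0.00154). C1qa had 46.5 ± 55.6 CPM in atrasentan, 5.40 ± 2.52 CPM in saline and 1.58 ± 0.83 CPM in wild type libraries, and its highest atrasentan library had 170.5 CPM. The proteases C1ra and C1s1 rose by 1.35 ± 0.21 and 0.74 ± 0.18 (adjusted p = 0.000297 and 0.00590).

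Of the fluid-phase regulators, Serping1, the C1 inhibitor, rose by 1.50 ± 0.23 with atrasentan against saline (edgeR adjusted p = 0.000311), at 639.9 ± 231 CPM, against 226 ± 10.7 with saline and 209 ± 47.5 in wild type (SD). Cpn1, the catalytic subunit of the carboxypeptidase that inactivates C3a and C5a, rose by 1.99 ± 0.45 with saline against wild type (adjusted p = 0.0234) and fell by 2.996 ± 0.42 with atrasentan against saline (adjusted p = 0.000190). Clusterin, Clu, the subject of the study's title and an inhibitor of terminal complex assembly, had 186 ± 51.9 CPM in atrasentan, 274 ± 109 CPM in saline and 176 ± 29.4 CPM in wild type libraries. It did not pass by edgeR in atrasentan against saline (-0.56, adjusted p = 0.0676), in saline against wild type (0.64, adjusted p = 0.141) or in atrasentan against wild type (0.08, adjusted p = 0.831).

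Among the other membrane regulators, Cd46 fell with atrasentan by 1.17 ± 0.27 against saline and by 0.88 ± 0.27 against wild type (edgeR adjusted p = 0.00392 and 0.0221). Cr1l (Crry), a cofactor for C3b cleavage on rodent cells, rose by 0.27 ± 0.08 with atrasentan against saline (adjusted p = 0.0123). The paralogues Cd55b and Cd59b fell by 2.44 ± 0.60 and 1.21 ± 0.25 in atrasentan against wild type (adjusted p = 0.00608 and 0.00145). Of the receptors, the integrin chains Itgax and Itgb2, which form complement receptor 4, rose by 1.55 ± 0.37 and 0.88 ± 0.27 with atrasentan against saline, and the lectin-like receptor Cd93 by 0.57 ± 0.17 (adjusted p = 0.00455, 0.0200 and 0.0143).

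In the lectin pathway, the ficolin Fcna rose by 2.40 ± 0.48 with atrasentan against saline (edgeR adjusted p = 0.00148). The mannose-binding lectin Mbl1 and the protease Masp2 fell by 2.01 ± 0.73 and 1.20 ± 0.36 (adjusted p = 0.0413 and 0.0170) at low levels. Mbl1 had 0.14 ± 0.12 CPM with atrasentan against 0.57 ± 0.34 CPM with saline, and Masp2 0.24 ± 0.13 against 0.56 ± 0.10 CPM. Of the 7 terminal pathway genes listed only C8a and C8g were tested. C8g fell by 0.88 ± 0.20 with atrasentan against saline (adjusted p = 0.00394), and C8a fell by 4.24 ± 0.95 against wild type (adjusted p = 0.00305), at 0.032 ± 0.064 CPM with atrasentan against 0.64 ± 0.38 CPM in wild type. The gene of C5, Hc, had 10 reads over all libraries.

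**Figure D4:**
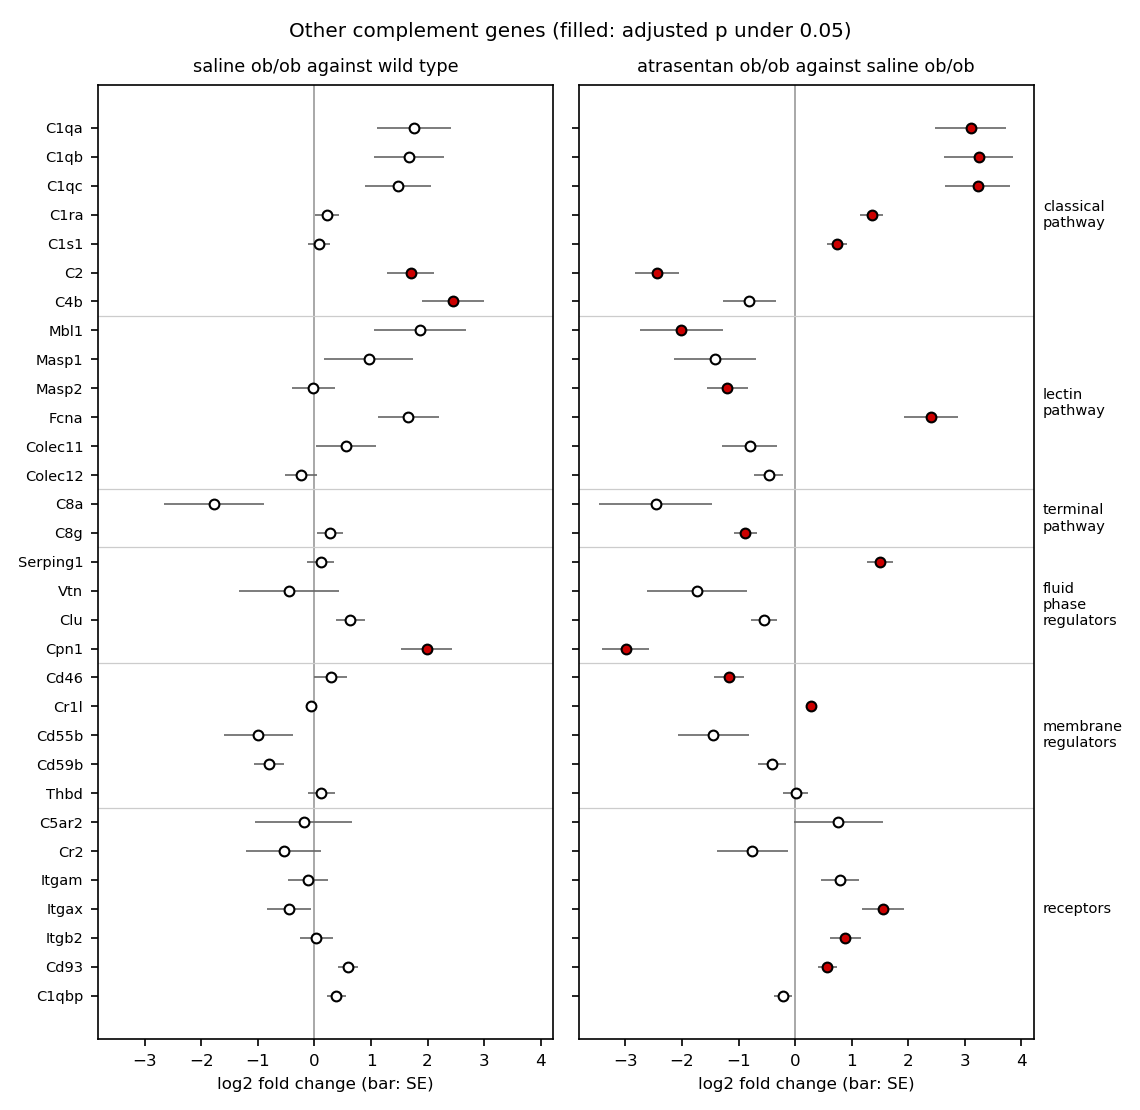
Log2 fold changes (x axis, bars are SE) of the 31 other complement genes tested, grouped by their place in the cascade, in saline ob/ob against wild type (left) and atrasentan against saline ob/ob (right). Filled points have an edgeR adjusted p under 0.05. The C1q chains lie near 3 in the right panel, and C2 and Cpn1 lie to the right of 0 on the left and to the left of 0 on the right.

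Levels of different genes were compared per length, as CPM divided by the exon length in kilobases (RPKM). Cd59a was the highest of the 9 in each group, at 29.5 ± 4.39 RPKM in atrasentan, 36.7 ± 11.3 in saline and 55.8 ± 23.5 in wild type libraries (SD). With atrasentan the order went on with Cfp (8.62), Cd55 (5.46), C5ar1 (4.23), C3 (2.96), C3ar1 (1.53) and Cfb (0.829 RPKM), each overlapping the next over libraries, and then Cfi (0.157), which lay apart from Cfb. With saline C3 was second at 15.1 ± 9.49 RPKM, overlapping Cd55 (7.52), followed by C5ar1 (2.73), Cfp, Cfb (both 2.47), Cfi (1.07) and C3ar1 (0.477 RPKM), each overlapping the next. In wild type Cd55 (14.7 RPKM) lay apart from both Cd59a above and C3 (2.79) below. C3, Cfp (2.11), C5ar1 (1.44), Cfd (1.19), Cfb (0.912) and Cfi (0.555) then overlapped in turn, and C3ar1 (0.181 RPKM) lay apart at the bottom. Over the 579 bases not shared with Gm20547, Cfb would stand at 4.04 ± 0.92 RPKM in atrasentan, 12.0 ± 6.23 in saline and 4.45 ± 1.76 in wild type libraries.

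The genes most like each member were found by Pearson's r between deviations of log2 CPM from the group mean over the 17 libraries, among 14140 genes. These values describe libraries that also share composition and depth, and no test was made. C3 was most like Olfm3 (r = 0.92), Slc19a3 (0.92) and Pank1 (0.90), and Cfb most like Anpep (0.93), Slc25a44 (0.93) and Car5b (0.92). C3 and Cfb had an r of 0.66, which put Cfb in place 1055 for C3. Cfi was most like A330040F15Rik, Mppe1 and 1810034E14Rik (0.89 to 0.90), and Cd55 most like Steap3, Car13 and Sulf1 (0.87 to 0.89). Cd59a was most like its paralogue Cd59b (0.90), followed by 2810002D19Rik (0.75) and Fastkd1 (0.74). Cfp was most like Casp4 (0.89), Plk1 (0.88) and Tmem173 (0.88). For C3ar1 the genes were Glrx2 (0.89), C1qb (0.89) and Cadm1 (0.89), and for C5ar1 Nfkb2 (0.91), Chil1 (0.91) and Il16 (0.90).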

How the data were processed

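Poly(A) RNA of 17 libraries was made into unstranded TruSeq libraries and, per the labels' protocols, read from a single end on a HiSeq. The authors deposited raw read counts for 53379 genes. Build GRCm38, STAR, HTSeq, limma, edgeR and DESeq2 appear in the submitters' processing notes. The annotation release and strand setting were not found there, so overlapping antisense genes cannot be told apart. The last 5 lines name no gene and stayed out of library sizes. Reads with several alignments took 23.4% to 31.8%, reads on no counted feature 3.17% to 8.58% and reads on more than 1 gene 2.93% to 3.37% of a library. The authors also deposited log2 normalized values for 17338 genes, whose transform is not stated, and these served 1 alternative. Symbols came from GENCODE M21 (53274 IDs, 99.8%).

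Tests on the deposited counts used edgeR 4.0.16 under R 4.3.3 (glmQLFit, glmQLFTest, TMM factors of 0.892 to 1.15, filterByExpr by group, 17766 genes, all libraries in 1 fit, biological coefficient of variation 0.312). Tests are two-sided, p-values were Benjamini-Hochberg adjusted over all genes tested, and SE is the fold change over the square root of F. CPM uses TMM-scaled library sizes. RPKM divides it by exon length. Marker means average log2 CPM (prior count 2) and were compared by exact permutation over mice and adjusted over 30 tests. The fits were tested on simulated data. Alternatives were other normalizations, no low-count filter, DESeq2 1.42.0, limma 3.58.1, covariates and left-out libraries (for the macrophage covariate and the other complement genes, chosen after the data were seen). Replicate numbers follow the order of the samples and pair nothing, and chi-square per degree of freedom over the 41 pairs of libraries within groups was 24.0 to 246.7, so each library was counted once. The labels set no batches apart. The deposited sample numbers run in blocks by group, and a difference in handling between the groups could not be told apart from the groups.

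The genes, the other complement genes and the marker lists were chosen with earlier results of these data known. Named are the 9 genes, other complement genes called in any comparison, Clu and Hc (the title's gene and the gene of C5) and the 3 genes most like each member. A further complement gene that was on the list is not reported here, and the counts leave it out.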

Additional observations from a re-analysis of the deposited data

Results flagged for a closer look

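In 27 gene and group pairs, 5 values, from 3 libraries, lay apart from the rest of their group by Dixon's test, which marks about 1 in 20 groups by chance. Atrasentan library 3 stood above its group in Cfp (42.56 CPM) and C3ar1 (18.43 CPM), beside the highest macrophage and neutrophil marker means of its group (4.92 and 2.88), and its single Cfd read (0.02831 CPM) was the only read of Cfd in the atrasentan group. Wild type library 4 stood above its group in Cfb (4.381 CPM), beside the highest proximal tubule marker mean of its group (6.95). Wild type library 3 stood below its group in Cfp (2.434 CPM), beside the lowest macrophage marker mean of its group (2.06). The part of the markers in these values was not tested.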

How the results depend on the processing

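No paired analysis was possible because the labels number no replicates. For the 8 genes tested, calls in atrasentan against saline (5) and against wild type (6) held in all 17 fits that left out 1 library (5 to 5 and 6 to 6 called, over 4361 to 6338 and 4092 to 5622 genes in all). In saline against wild type the 3 calls became 1 to 3, over 216 to 1523 genes, and C3 alone passed in every such fit (2.08 to 2.65). Over all genes, calls in saline against wild type went from 910 to 2000 with DESeq2, 1430 in the fit of the 2 groups alone, 103 when adjusted for the proximal tubule mean, 6 when adjusted for the glomerular share (podocyte minus proximal tubule mean) and 54 if saline libraries 1 and 3 were left out. In the last 3 settings edgeR called 0 of the genes followed (4, 1 and 6 at an unadjusted p under 0.05). In atrasentan against saline 6001 became 3, 1676 and 1427 when adjusted for the tubule mean, the glomerular share and the macrophage mean (0, 3 and 3 of the 8 called), and 2577 without saline libraries 1 and 3. In atrasentan against wild type 5190 became 2014 with the macrophage mean (2 of the 8 called). With the glomerular share, the calls in atrasentan against saline were those of Cfi, Cfp and C3ar1. Some signs turned: C3 in atrasentan against wild type with upper-quartile factors (-0.010), the deposited log2 values (-0.076), the glomerular share (-0.18), the macrophage mean (-0.33) and without atrasentan library 1, 3 or 6 (-0.11 to 0.22 over all libraries); Cfb there with the proximal tubule mean (0.73) and without wild type library 4 (-0.24 to 0.14); Cfi in saline against wild type with the proximal tubule mean (-0.030); and C3, Cfb (0.11 and 0.021, proximal tubule mean) and C5ar1 (-0.63, macrophage mean) in atrasentan against saline. With the proximal tubule mean C3 passed in atrasentan against wild type (1.27, adjusted p = 0.0188). The cause was not tested. Leaving out 1 library turned the sign of near-0 marker differences of saline from wild type (macrophage -0.18 to 0.15, endothelium -0.081 to 0.054) and of the distal nephron markers in atrasentan against wild type (-0.58 to 0.12). The adjusted p of the podocyte mean in atrasentan against saline reached 0.0779, and that of the macrophage mean in atrasentan against wild type 0.0744. Of the 31 other complement genes, 3 were called in saline against wild type, 6 with DESeq2, 7 in the fit of the 2 groups alone, 0 when adjusted for the tubule mean or glomerular share or without saline libraries 1 and 3, and 0 to 7 if 1 library was left out (0 or 1 without saline library 1 or 3 or wild type library 1, 2, 3 or 5, and 7 without atrasentan library 3). In atrasentan against saline 17 became 0, 10 and 5 with the tubule mean, the glomerular share and the macrophage mean and 9 without saline libraries 1 and 3 (15 to 19 if 1 library was left out). In atrasentan against wild type 17 became 8 with the macrophage mean (13 to 21). Cfd and Cfi rest on few reads, which limits their precision.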

Other observations

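Gm16083, a gene antisense to Cd55 that overlaps 102 bases of its exons, stood at 0.297 ± 0.212 CPM in atrasentan, 0.639 ± 0.289 CPM in saline and 1.31 ± 0.332 CPM in wild type libraries (SD, n = 7, 5 and 5). Every atrasentan library (up to 0.575 CPM) lay below every wild type library (from 0.913 CPM), as for Cd55. The gene was chosen for its place and no test was made. Without a strand in the counts, reads of the overlap cannot be told apart from those of Cd55.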
